A study of Homo sapiens with 12 samples.

Results

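The ZIC genes encode zinc finger transcription factors, and the 4 autosomal members ZIC1, ZIC2, ZIC4 and ZIC5 were described here for histone 3 trimethylated at lysine 27 (H3K27me3) in human SH-SY5Y neuroblastoma cells. They are 4 of the 20033 protein-coding genes in the annotation used. They form 2 divergent pairs, ZIC4 with ZIC1 on chromosome 3 and ZIC5 with ZIC2 on chromosome 13. They were chosen by the presence and absence of peaks: a mark near a start site of ZIC4 was found only in both peak lists of cells that express Tau. The difference between Tau-expressing and Tau-KO cells at these genes is therefore a description, and no test of it is given.

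Chromatin was precipitated with an antibody against H3K27me3 from 3 untreated genotypes of 1 cell line: parental SH-SY5Y cells, which express Tau (WT), and the Tau-KO lines 231K and 232P, in which the Tau gene MAPT was disrupted with CRISPR-Cas9. Each genotype had 2 biological replicates, which gives 6 peak lists, 2 from WT and 4 from Tau-KO cells. Each Tau-KO line is a separate line, so a value shared by its replicates may belong to that line and not to the lack of Tau. Both lists that the labels give to 232P carry peak names starting with 231P, and their groups were taken from the labels. The authors name 231P as another Tau-KO line in their RNA-seq analysis, so the values given here for 232P may belong to that line. No list holds a peak within 1 kb of MAPT, so the genotypes cannot be checked from them. The 6 input samples were not analysed here.

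A peak is a stretch of the genome with more reads than its local background, and its fold enrichment divides the summit reads by that background after 1 was added to each. The lists held 147118 to 285826 peaks. The relative depth, recovered from the peaks, was 100% and 66.6% in WT replicates 1 and 2, against 94.8% and 68.7% in 231K and 68.1% and 56.9% in 232P. No list held a -log10 q-value under 0.824, and the minimum of the lists reached 0.842 at most. Where a list has no peak, the signal did not pass this threshold at that depth. The lists hold no read counts, so no interval from counts can be given. The narrowest peak measured 175 to 179 bp in the replicate 1 lists but 240 to 262 bp in the replicate 2 lists, and within each genotype replicate 2 had the wider peaks and the higher covered share at both gene pairs. Covered shares are therefore given for every list.

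ZIC proteins bind DNA through zinc fingers of the type also found in GLI proteins, the effectors of Hedgehog signalling. They act in the neural plate border, the dorsal neural tube, the neural crest and the cerebellum. Loss of ZIC2 causes holoprosencephaly, and deletions of ZIC1 and ZIC4 together were linked to the Dandy-Walker malformation of the cerebellum. H3K27me3 is written by PRC2, and in differentiated cells it often lies in broad domains over genes for developmental transcription factors of other lineages. In mammals, PRC2 is recruited mostly to DNA rich in unmethylated CG dinucleotides.

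The sequences before the starts are shown because they frame the ZIC4 and ZIC2 results described next. Each line holds the 250 bases before a start, 5′ to 3′ on the strand of the gene, from RefSeq (GRCh38.p14), with every CG dinucleotide in capitals. ZIC4 is shown for 1 of its 3 starts with a mark only in the WT lists, the one that the RefSeq table holds (chr3:147404285-147404534, minus strand), and ZIC1 (chr3:147409115-147409364, plus strand), ZIC2 (chr13:99981534-99981783, plus strand) and ZIC5 (chr13:99971768-99972017, minus strand) for the start of the canonical transcript.
ZIC4: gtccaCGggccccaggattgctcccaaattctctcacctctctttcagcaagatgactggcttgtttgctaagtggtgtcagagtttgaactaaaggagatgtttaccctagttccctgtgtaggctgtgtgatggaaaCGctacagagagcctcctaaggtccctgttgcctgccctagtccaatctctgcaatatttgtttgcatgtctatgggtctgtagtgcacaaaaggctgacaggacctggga
ZIC1: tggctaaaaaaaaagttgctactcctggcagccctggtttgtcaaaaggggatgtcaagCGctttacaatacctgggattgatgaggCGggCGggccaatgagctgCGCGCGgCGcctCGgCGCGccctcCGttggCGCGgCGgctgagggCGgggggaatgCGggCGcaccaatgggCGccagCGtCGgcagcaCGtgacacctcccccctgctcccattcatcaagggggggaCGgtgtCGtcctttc
ZIC2: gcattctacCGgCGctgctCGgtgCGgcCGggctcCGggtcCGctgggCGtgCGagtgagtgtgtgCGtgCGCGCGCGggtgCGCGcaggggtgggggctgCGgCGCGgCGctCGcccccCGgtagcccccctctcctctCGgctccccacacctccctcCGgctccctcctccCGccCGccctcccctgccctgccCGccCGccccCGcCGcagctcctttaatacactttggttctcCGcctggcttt
ZIC5: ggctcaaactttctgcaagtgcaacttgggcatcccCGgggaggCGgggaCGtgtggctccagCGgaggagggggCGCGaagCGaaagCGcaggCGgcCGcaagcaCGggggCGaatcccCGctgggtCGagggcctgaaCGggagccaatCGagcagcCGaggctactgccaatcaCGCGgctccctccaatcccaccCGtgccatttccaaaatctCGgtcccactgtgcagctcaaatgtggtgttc
This ZIC4 sequence held 2 CG, with a GC content of 49.6%. The sequence of ZIC1 held 23 CG, that of ZIC2 held 31 and that of ZIC5 held 21, so that CG number did not separate the pairs. Over 34941 RefSeq promoters the median was 11 CG. At least as many CG as in ZIC2 were found in 10.8% of these promoters, and at least 2 CG in 85.3%. At the canonical ZIC4 start, the same stretch, which is not printed, held 9 CG. Other ZIC4 transcripts extend over both stretches, among them the canonical transcript over the printed one.

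ZIC4 and ZIC1 lie head to head on chromosome 3 (ZIC4, ENSG00000174963.18, 147386046 to 147406809, minus strand; ZIC1, ENSG00000152977.10, 147393422 to 147510293, plus strand with its longest transcripts; all positions are in hg38). The window with 20 kb on each side of both genes spanned 147366046 to 147530293, or 164248 bp. It held 26 and 22 peaks in WT replicates 1 and 2, against 11 and 7 in 231K and 8 and 9 in 232P, so both WT lists held more peaks than any Tau-KO list. How often other regions separate in this way was not determined. Peaks covered 7.28% and 13.6% of the bases in WT, against 4.49% and 9.18% in 231K and 1.79% and 6.47% in 232P. The covered share of WT replicate 1 lay below that of 231K replicate 2, so the groups overlapped in this value. The means were 10.5% ± 4.48 for WT, 6.83% ± 3.32 for 231K and 4.13% ± 3.31 for 232P (SD, n = 2 each). WT exceeded the mean of the Tau-KO lists by 4.97 percentage points, and by 4.15 within replicate 1 and 5.80 within replicate 2.

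**Figure D1:**
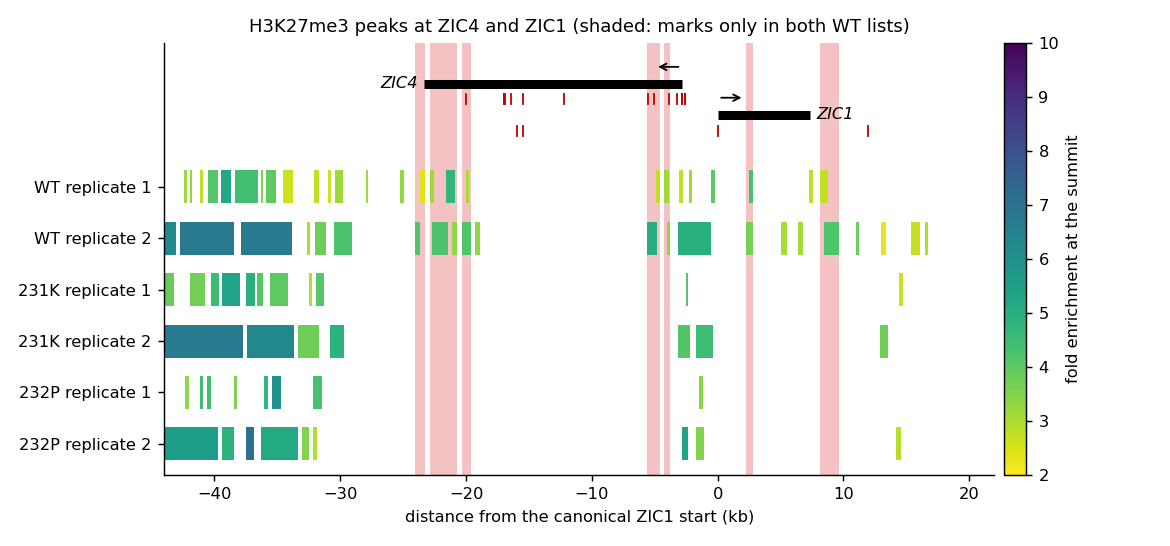
H3K27me3 peaks around ZIC4 and ZIC1 in the 6 lists, by distance in kb from the canonical ZIC1 start. Each box is a peak coloured by its fold enrichment, black bars are the canonical transcripts with arrows for their direction, red ticks are annotated starts, and the 7 shaded stretches are marks found only in both WT lists. All 6 lists hold peaks beyond the 3′ end of ZIC4, on the left, while peaks over ZIC4 itself lie mostly in the WT lists.

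The peaks of the chromosome 3 window were unevenly placed. In the 20 kb beyond the 3′ end of ZIC4, they covered 39.2% and 58.0% of the bases in WT replicates 1 and 2, against 34.2% and 60.6% in 231K and 13.1% and 45.6% in 232P. Here the values of 231K lay on both sides of those of WT. This stretch belongs to a broader domain: its merged mark, 147363445 to 147378201 and 14757 bp wide, was found in all 6 lists and overlaps the start of the long non-coding gene ENSG00000243620, which is read from the minus strand. The peak with the highest q-value rank of the window lay in this domain in every list, with a fold enrichment of 5.16 and 6.73 in WT, against 5.36 and 6.74 in 231K and 5.97 and 7.06 in 232P. It ranked between percentiles 89.5 and 98.3 of all peaks of its list.

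Over the ZIC4 gene, peaks covered 11.2% and 21.1% of the bases in WT, against 0% and 2.71% in 231K and 0% and 1.26% in 232P. The groups did not overlap. How often they separate in this way over other genes was not determined, so nothing is read from this. The longest gap between neighbouring peaks in the window was 14894 and 13311 bp in WT, against 28778 and 26594 bp in 231K and 29962 and 29019 bp in 232P. In the 4 Tau-KO lists this gap ran from the domain beyond the 3′ end up to the shared start region, and so held nearly the whole ZIC4 gene. In WT it was interrupted by peaks near both ends of the gene, among them one over an exon and UTR at the 3′ end. The antisense non-coding gene ZIC4-AS1 (147386967 to 147387453), in the same place, had a mark within 1 kb of its start in both WT lists and in no Tau-KO list.

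Between the outermost ZIC4 start and the canonical ZIC1 start, a stretch of little more than 2 kb, the covered share was 20.4% and 81.1% in WT, against 7.95% and 67.8% in 231K and 12.2% and 31.3% in 232P. A merged mark of 2968 bp, 147406191 to 147409158, was found there in all 6 lists. In 231K replicate 1 and 232P replicate 1 it rests on 1 peak each, 203 and 312 bp wide, which do not overlap each other. Its highest fold enrichment was 3.97 and 4.92 in WT, against 4.10 and 4.49 in 231K and 3.39 and 5.37 in 232P, and these values overlapped between the groups.

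Merging the peaks of all lists that overlap by at least 1 bp gave 21 marks in the ZIC1/ZIC4 window. Of these, 7, or 33.3%, were found only in both WT lists, none only in all 4 Tau-KO lists, 2 in all 6 lists and 9 in a single list. Over all 279786 merged marks of the genome, 2.25% were found only in both WT lists, 0.0618% only in all 4 Tau-KO lists and 12.1% in all 6. The choice of the genes rests on this contrast, and nothing is read from the difference in shares. The 7 marks together spanned 7177 bp, and 4 of them lay within 1 kb of a ZIC4 start. Exons of ZIC4 transcripts were overlapped by 5 of them, and the other two lay in ZIC1 outside its annotated exons.

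Each of the 7 marks rests on few reads. The summit heights recovered from the lists were 6 to 11 reads in WT replicate 1 and 7 to 12 reads in WT replicate 2. The fold enrichments were 2.44 to 4.76 in WT replicate 1 and 3.36 to 5.01 in WT replicate 2, and the -log10 q-values 1.20 to 4.56 and 2.41 to 5.41. The weakest peak that a Tau-KO list holds at its lowest background had a fold enrichment of 2.46 and 2.49 in 231K replicates 1 and 2, and of 2.97 and 2.63 in 232P. For 4 of the 7 marks, the lower of both WT fold enrichments was above this value in all 4 Tau-KO lists. Whether an equal signal would have been listed there was not tested. The WT lists are not the deepest throughout: 231K replicate 1 has 94.8% of the depth of WT replicate 1 and is deeper than WT replicate 2. The part of depth in the WT-only marks was not tested. With the same number of strongest peaks in every list, 2 of the 7 were left, that at the 3′ end of ZIC4 and that within ZIC1, and when peaks needed a -log10 q-value of 5 or more, none was left.

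Of the 4 WT-only marks within 1 kb of a ZIC4 start, 1 lay at 147403772 to 147404817, over an annotated exon and UTR of ZIC4. This mark lay at the start whose sequence is printed with 2 CG. In WT replicate 1 its peak ran from 147404496 to 147404817, with 2.78-fold enrichment, a -log10 q-value of 1.46 and a height of 6 reads. In WT replicate 2 its peak ran from 147403772 to 147404513, with 5.01-fold enrichment, a -log10 q-value of 5.41 and a height of 12 reads. Both peaks shared only 18 bp. The strongest WT-only mark in replicate 1, at 147386541 to 147388645 over the 3′ end of ZIC4, was enriched 4.76-fold and 4.24-fold in the WT lists, and its peaks shared 491 bp. The mark within the ZIC1 transcript, 147411627 to 147412214, was enriched 4.33-fold and 3.66-fold, and its peaks shared 371 bp.

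The weakest mark just inside the rule was that at 147385331 to 147386069, enriched 2.44-fold in WT replicate 1 and 4.2-fold in WT replicate 2. Just outside it was the mark at 147378392 to 147380309, beyond the 3′ end of ZIC4, which was also found in 231K replicate 2. Its enrichment was 3.18-fold and 4.28-fold in the WT lists and 4.87-fold in 231K replicate 2.

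ZIC4 has 15 distinct annotated starts, and they did not share a pattern. A start counted as marked where any peak reached within 1 kb of it. Marked only in both WT lists were 3 of the 15, at 147389372, 147403798 and 147404284, which lie 17.2, 2.75 and 2.26 kb downstream of the canonical start in the direction of transcription. Over all 146431 distinct starts of protein-coding genes, 0.117% had this pattern, and 4.82% were marked in all 6 lists, as was none of the 15. The canonical ZIC4 start at 147406543 was marked in 5 lists: peaks covered 511 and 1417 bp of its 1 kb on each side in WT, against 203 and 938 bp in 231K and 0 and 488 bp in 232P. At the level of the gene, ZIC4 was therefore not among the 40 genes, or 0.2% of all, with a start mark in both WT lists and in no Tau-KO list. The reverse pattern, all 4 Tau-KO lists and no WT list, was found for 0.00998% of genes and for no ZIC gene. The start at 147405520 had peaks in both WT lists and over 273 bp in 231K replicate 2. No list had a peak at 6 of the 15 starts, which lie between 147392391 and 147397186 in the middle of the gene.

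**Figure D2:**
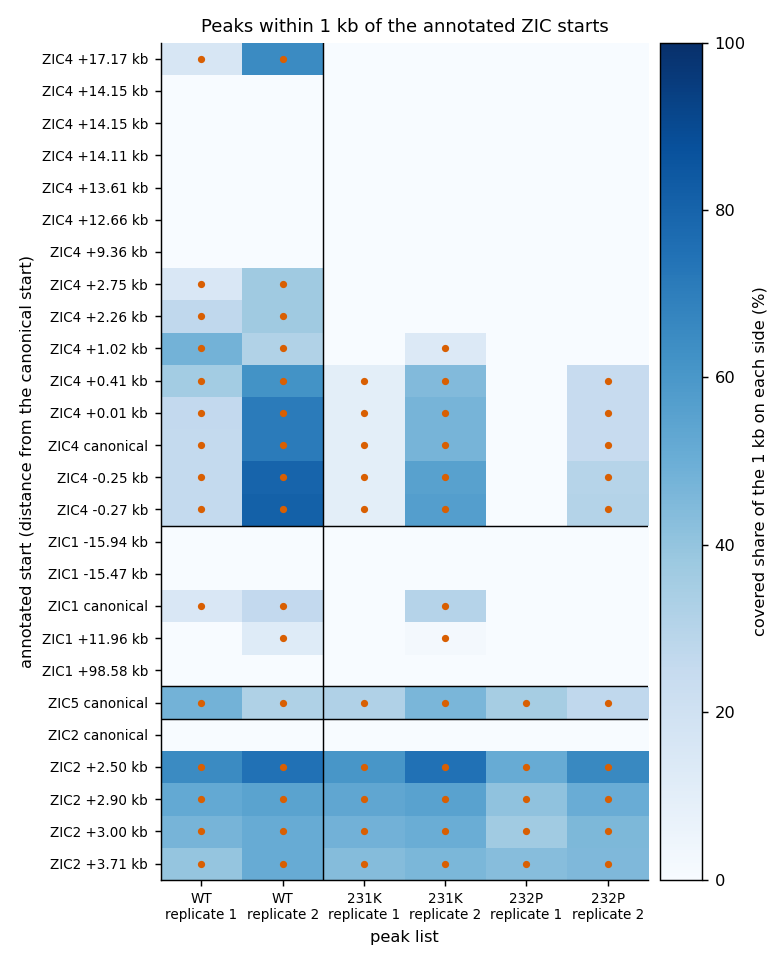
Annotated starts of the 4 ZIC genes (rows, named by their distance in kb from the canonical start in the direction of transcription) in the 6 lists (columns). The colour is the share in percent of the 1 kb on each side that peaks cover, and an orange dot marks any overlap. The ZIC4 starts at +17.17, +2.75 and +2.26 kb have dots only in the WT columns, and the canonical ZIC2 start has none in any column.

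ZIC1 is described mainly by its canonical transcript, because its longest transcripts also span much of ZIC4. Its canonical start at 147409365 had peaks within 1 kb in WT replicates 1 and 2 (301 and 516 bp) and in 231K replicate 2 (605 bp), and in no other list. Peaks covered 6.0% and 21.1% of the canonical ZIC1 transcript (147409365 to 147416719) in WT and 0% in all 4 Tau-KO lists. Of the 5 annotated starts of ZIC1, none was marked in all 6 lists, none only in both WT lists, and 3 in no list. Beyond the canonical transcript, the covered share was at most 2.43%, reached in WT replicate 2, and the last peak of any list in the window ended at 147426094. Farther to the right, no list had a peak in the next 10 kb bins, and the nearest protein-coding gene on that side, AGTR1, 1167 kb away, had no peak.

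ZIC5 and ZIC2 on chromosome 13 (ZIC5, ENSG00000139800.9, 99962964 to 99971767, minus strand; ZIC2, ENSG00000043355.12, 99981784 to 99986765, plus strand) were marked differently. Their window with 20 kb on each side, 99942964 to 100006765 or 63802 bp, held 31 and 20 peaks in WT replicates 1 and 2, against 37 and 23 in 231K and 38 and 16 in 232P. The groups overlapped. Peaks covered 55.2% and 64.4% of the bases in WT, against 43.4% and 59.0% in 231K and 35.1% and 46.2% in 232P. The covered share of 231K replicate 2 lay between both WT values, while the other Tau-KO lists lay below them. The means were 59.8% ± 6.49 for WT, 51.2% ± 11.0 for 231K and 40.6% ± 7.84 for 232P (SD, n = 2 each). WT exceeded the mean of the Tau-KO lists by 13.9 percentage points, by 15.9 within replicate 1 and by 11.8 within replicate 2. The difference was 23.6 when peaks needed a -log10 q-value of 5 or more, and 8.81 and 7.07 with flanks of 10 and 50 kb.

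**Figure D3:**
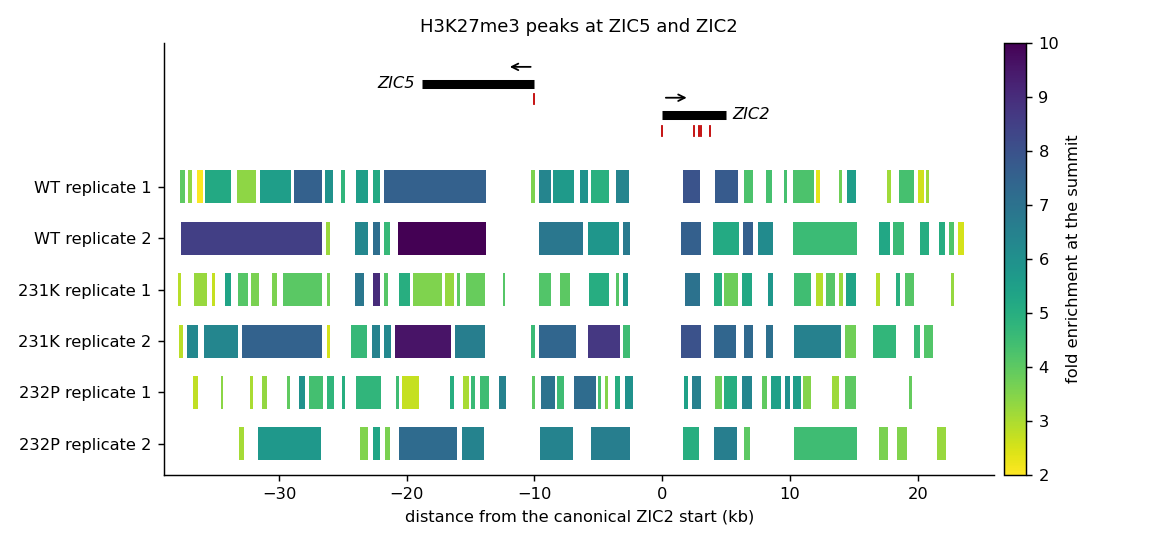
H3K27me3 peaks around ZIC5 and ZIC2 in the 6 lists, by distance in kb from the canonical ZIC2 start. Boxes are peaks coloured by fold enrichment, black bars are the canonical transcripts with arrows for their direction, and red ticks are annotated starts. All 6 lists hold peaks on both sides of the ZIC2 start and none across it.

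The highest fold enrichment of the chromosome 13 window was above that of the chromosome 3 window in every list, but the median over peaks was not, with 4.73 against 4.86 in 232P replicate 2. The highest fold enrichment in the window was 7.94 and 10.1 in WT, against 9.02 and 9.59 in 231K and 7.19 and 7.23 in 232P. The peak with the highest -log10 q-value had 11.3 and 16.2 in WT, against 14.9 and 15.6 in 231K and 7.57 and 9.13 in 232P, and ranked between percentiles 98.9 and 99.8 of its list. Peaks less than 10 kb apart formed a single stretch across both genes, 65.7 and 63.9 kb long in WT, against 60.7 and 65.0 kb in 231K and 56.3 and 55.3 kb in 232P. The nearest protein-coding genes on each side, CLYBL at 33.5 kb and PCCA at 82.2 kb, had no peak in any list, apart from 1 peak of WT replicate 1 in PCCA. The pair lay in 18 merged marks, of which 9 were found in all 6 lists, none only in both WT lists and none only in all Tau-KO lists. The widest, 99943876 to 99955200, was 11325 bp long. The non-coding genes within the window were covered too, ENSG00000288060 between both starts by 46.7% to 78.9% and LINC00554 by 31.2% to 71.7%.

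Along this domain the lists differed most at its left end. Beyond the 3′ end of ZIC5, peaks covered 73.9% and 75.9% in WT, against 51.5% and 74.6% in 231K and 35.9% and 43.0% in 232P. Over the ZIC5 gene, they covered 59.2% and 57.3% in WT, against 47.3% and 54.7% in 231K and 27.3% and 51.0% in 232P. Over the ZIC2 gene, they covered 42.7% and 50.7% in WT, against 38.8% and 48.0% in 231K and 33.9% and 45.8% in 232P. Over ZIC5 both WT lists lay above the Tau-KO lists, while beyond its 3′ end 231K replicate 2, and over ZIC2 replicate 2 of both Tau-KO lines, lay between the WT values. The share of all genes that separate as ZIC5 does was not determined, so nothing is read from it. Compared within the same replicate number, WT lay above both Tau-KO lines in each of these segments. Beyond the 3′ end of ZIC2 this did not hold, with 36.66% in WT replicate 1 against 36.725% in 231K replicate 1.

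**Figure D4:**
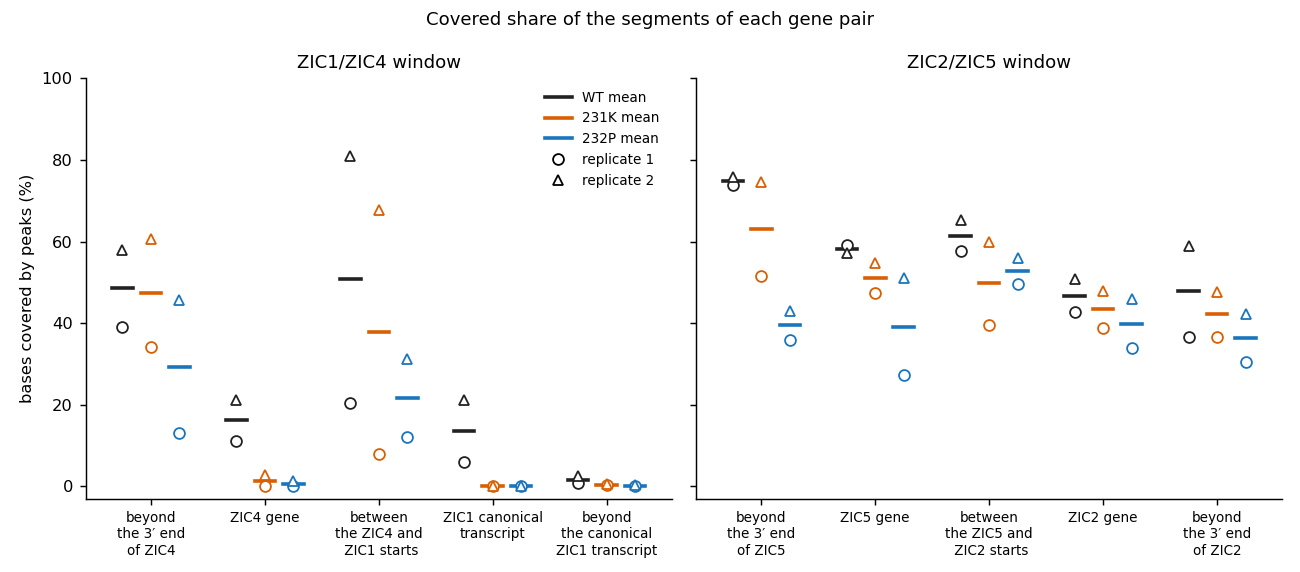
Share of bases in percent that peaks cover in 5 segments of each ZIC pair, with circles for replicate 1, triangles for replicate 2 and bars for the mean of each genotype. Over the ZIC4 gene and the canonical ZIC1 transcript the Tau-KO lists lie between 0% and 2.71%, while beyond the 3′ end of ZIC4 they lie between 13.1% and 60.6%.

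Within this domain, no list had a peak within 1 kb of the canonical ZIC2 start at 99981784. The gap across it was 4260 and 4003 bp in WT, against 4423 and 4063 bp in 231K and 3964 and 4150 bp in 232P, so that it was of similar length in the 6 lists. Longer gaps lay elsewhere in the window in some lists. They lay at ZIC5 in WT replicate 2 (4116 bp) and 232P replicate 2 (4366 bp), and beyond ZIC2 in 232P replicate 1 (4204 bp). The nearest peak lay 2265 to 2663 bp upstream and 1471 to 1761 bp downstream. The flanking mark at 99983255 to 99984821, which overlaps a ZIC2 exon, was found in all 6 lists with a fold enrichment of 7.94 and 7.57 in WT, against 6.97 and 8.00 in 231K and 6.54 and 4.98 in 232P. The other 4 annotated ZIC2 starts, 2.5 to 3.71 kb downstream, were marked in all 6 lists. Peaks covered at least 25% of the 20 kb on each side of the canonical start in all 6 lists for 777 genes, or 3.88% of all. Of these 777, 18 genes, or 2.32%, had no peak within 1 kb of that start in any list, and ZIC2 was among them. This criterion was set after the ZIC2 values were seen. The canonical ZIC5 start at 99971767 was marked in all 6 lists, like 8.53% of all canonical starts, over 960 and 644 bp in WT, against 639 and 925 bp in 231K and 698 and 535 bp in 232P.

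The stretches without peaks at ZIC2 and ZIC5 were rich in CG, whereas those of the ZIC1/ZIC4 window as a whole were not. The 3735 bp across the ZIC2 start that were free of peaks in all lists had a GC content of 70.7% and 11.2 CG per 100 bp, against 0.860 CG per 100 bp on all of chromosome 13. The marks found in all 6 lists at ZIC2 and ZIC5 had 1.88 CG per 100 bp. At ZIC4, the longest stretch of the gene without a peak in any list, 147390461 to 147403771, had 3.49 CG per 100 bp, and the 7 WT-only marks had 1.99. All bases of the ZIC1/ZIC4 window without a peak in any list had 1.26 CG per 100 bp, fewer than the 1.82 of its marks in all 6 lists, while at ZIC2/ZIC5 they had 8.15. In bins of 500 bp of the ZIC2/ZIC5 window, those under 5 CG per 100 bp (89 bins) were covered by 70.0% and 83.6% in WT, against 56.3% and 76.8% in 231K and 38.2% and 60.3% in 232P. Those with 5 or more (37 bins) were covered by 21.9% and 20.9% in WT, against 14.3% and 18.8% in 231K and 29.0% and 14.2% in 232P. The share was lower in the CG-rich bins in each of the 6 lists. In the ZIC1/ZIC4 window, 3 of 21 CG-rich bins and 75 of 306 others had a peak in any list.

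**Figure D5:**
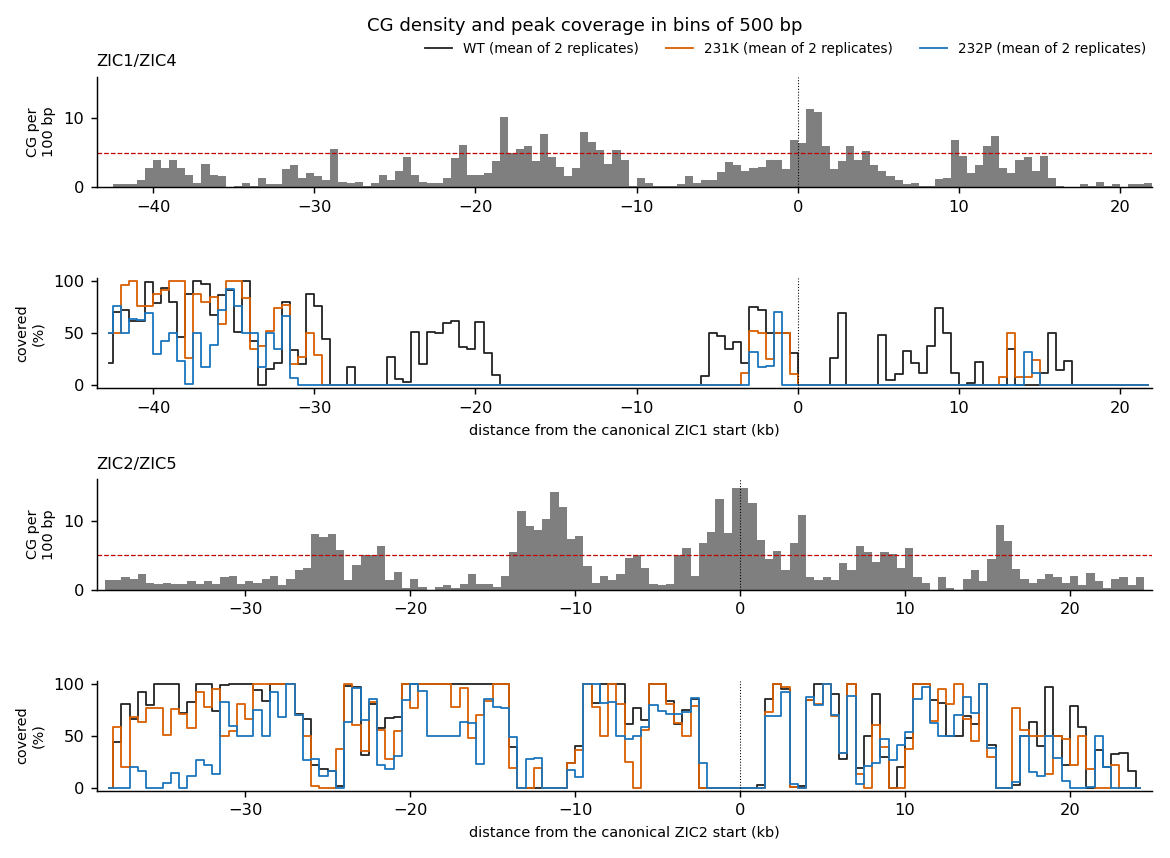
CG dinucleotides per 100 bp (grey bars, dashed line at 5) and share of bases that peaks cover in percent (lines, mean of 2 replicates per genotype) in bins of 500 bp around both ZIC pairs, by distance in kb from the canonical ZIC1 or ZIC2 start (dotted). Coverage is at 0 in all genotypes at the ZIC2 start, where the CG density is highest.

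The same relation was found over a wider set of broadly marked genes, which includes ZIC2 and ZIC5 themselves. In the 20 kb on each side of the canonical starts of 758 autosomal genes with at least 25% covered in all 6 lists, bins under 5 CG per 100 bp (46639 bins) were covered by 70.7% and 78.6% in WT, and bins with 5 or more (2479 bins) by 24.9% and 20.9%. In 231K the shares were 66.4% and 80.4% against 14.6% and 17.1%, and in 232P 40.2% and 63.7% against 27.5% and 7.84%. The low coverage of CG-rich DNA at ZIC2 and ZIC5 is thus a property that these genes share with other broadly marked genes. The input samples were not analysed, and the part of base composition in the recovery of reads was not tested.

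The 2 Tau-KO lines are a contrast that the choice of genes did not use. At the ZIC1/ZIC4 window, 231K exceeded 232P by 2.70 percentage points of covered bases, and at the ZIC2/ZIC5 window by 10.6 percentage points. Within replicate 1 the differences were 2.70 and 8.35, and within replicate 2 they were 2.71 and 12.9 percentage points, so 231K was higher in both replicate numbers at both pairs. The exact permutation test over samples, two-sided, gave p = 0.667 at each pair, where the smallest p that 2 against 2 samples allow is 0.333. With 2 samples per line this test cannot pass a threshold of 0.05, so its p does not show that the lines are alike. The pooled SD of the replicates was 3.31 percentage points at ZIC1/ZIC4 and 9.57 at ZIC2/ZIC5. Without 231K replicate 2 the differences between the lines fell to 0.356 and 2.81 percentage points. Without 231K replicate 1 they rose to 5.05 and 18.4. The list of 232P replicate 1 is the shortest, and the part of depth in this difference was not tested.

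Around the canonical starts, the 4 genes fell into 2 levels. Peaks covered 40.3% to 62.4% of the 20 kb on each side of the ZIC2 start and 45.7% to 61.4% of that of ZIC5. At ZIC4 the share was 10.3% and 26.9% in WT, against 1.32% and 7.38% in 231K and 0.780% and 3.76% in 232P. At ZIC1 it was 7.79% and 22% in WT and the same as at ZIC4 in the Tau-KO lists, since both starts share the only peaks there. The lowest value of ZIC2 or ZIC5 in any list was higher than the highest of ZIC1 or ZIC4, 40.3% against 26.9%. Among all genes, ZIC2 and ZIC5 lay between percentiles 93.2 and 98.8 of their list, and ZIC1 and ZIC4 between 76.4 and 87.2. The median over all genes was 0%.

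The autosomal genes with the most similar covered shares over the 6 lists were sought for each member by the root mean square difference. For ZIC2 these were LHX2, OSR1 and SALL3, with differences of 3.08, 3.13 and 3.22 percentage points. For ZIC5 they were PAX6, SALL3 and LHX2, with 2.65, 3.02 and 3.85. All are genes for developmental transcription factors. The covered share of PAX6, a regulator of eye and forebrain development, was 58.8% and 59.1% in WT, against 48.9% and 59.4% in 231K and 48.4% and 46.3% in 232P. For ZIC4 they included ZNF722 and OR8J2, with 1.87 and 4.28, and for ZIC1 they were OR8J2, ZNF722 and DRAM1, with 2.67, 2.87 and 2.99. OR8J2 belongs to the olfactory receptors.

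Counted per gene at any annotated start, 2 of the 4 members, ZIC2 and ZIC5, had a mark in all 6 lists, against 11.4% of all protein-coding genes. In single lists, the share of all genes with a start mark was 18.2% and 18.4% for WT, 16.7% and 18.3% for 231K, and 14.5% and 15.7% for 232P. No start was marked in any list for 78.1% of all genes. Of the 10 genes of the GLI and GLIS relatives and the Hedgehog pathway, 3 were marked in all 6 lists: GLI1, GLI3, a main repressor of the pathway, and its ligand SHH. In no list were GLIS2, the signal transducer SMO and its downstream inhibitor SUFU marked. GLI2 and GLIS1 were marked only in WT replicate 1, GLIS3 only in WT replicate 2 and the receptor PTCH1 only in 231K replicate 2.

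Over all protein-coding genes, 11.4% were marked in all 6 lists and 78.1% in none. Of the 20 genes of the neural plate border and the dorsal neural tube, where ZIC genes act, 10 were marked in all 6 lists and 6 in none. Marked in all were, among others, the secreted signal BMP6, the neural crest factor FOXD3, the roof plate factor LMX1A and the border factor MSX1. ATOH1, GDF7, MSX2, SOX10 and TFAP2B were among those marked in none. DLX5 was marked in 3 lists, GBX2 in 2, and SOX9 and LMX1B in 1 each. No gene of either list was marked only in both WT lists, a pattern that 0.2% of all genes had, so nothing is read from this.

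Of 10 genes of adrenergic neuroblastoma, the state of SH-SY5Y cells, 8 (PHOX2A, HAND2, GATA2, GATA3, ISL1, CHGA and the catecholamine enzymes TH and DBH) had no start mark in any list. Of 8 housekeeping genes, 7 (ACTB, B2M, EEF1A1, GAPDH, PPIA, RPLP0 and TBP) had no mark in any list. With 78.1% of all genes in this class, neither count checks the cell type. The other housekeeping gene, HPRT1 on chromosome X, had a mark in all 6 lists. A repressive mark does not measure expression, so the lists cannot show whether a ZIC gene was transcribed.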

How the data were processed

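Peak lists from 6 H3K27me3 ChIP-seq samples were analysed, each called on its own sample. For these lists the authors used trimmomatic, BWA with hg38 as the genome, and MACS (version 2). The broadPeak setting is named in their methods, but the files have 10 narrowPeak columns. The threshold, the handling of duplicates and the control are not given in the sources used here. The submitters' processing notes also list deepTools. In the deposited lists, fold enrichment is a ratio of summit reads to local background. The authors also deposited p-values and q-values as -log10, and a score of 10 times the latter. None is normalized between samples.

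The members and gene lists were chosen with earlier results of these data known. Windows were each gene pair with 20 kb on each side, in hg38 with GENCODE release 44. Heights and backgrounds were recovered from fold enrichment and p-value with the Poisson distribution, and 100% of the peaks gave whole reads within 0.001 of the -log10 p-value. The lowest background divided by the smallest peak width gave the relative depth. Steps were tested on simulated data. The lines 231K and 232P were compared by an exact permutation test. With 2 samples per line, its p-value is the share of the 6 arrangements of these samples with a difference at least as large. It concerns only these samples. Genes named beside the members are those within the windows, the nearest protein-coding genes, the 3 most similar genes without a start within 200 kb, and, from each gene list, the genes marked in no list or in some lists and up to 4 others in alphabetical order. A few genes that this rule names are not reported here. Alternatives were stricter thresholds, an equal number of peaks, joining within 1 kb, other flanks and start definitions, and leaving out each replicate. Python 3.11.15, pandas 2.3.3, numpy 2.4.6, scipy 1.17.1 and matplotlib 3.10.9 were used.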

Additional observations from a re-analysis of the deposited data

How the results depend on the processing

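No alternative turned the direction of a difference in covered share between group means, but several changed its size. The difference between 231K and 232P ranged from 1.03 to 4.19 percentage points at ZIC1/ZIC4 and from 3.83 to 13.1 at ZIC2/ZIC5, and from 0.356 to 5.05 and 2.81 to 18.4 when 1 list was left out. At ZIC2/ZIC5 joining peaks within 1 kb gave p = 0.333 by the exact permutation test, the smallest possible. When peaks needed a -log10 q-value of 5 or more, WT minus Tau-KO rose from 13.9 to 23.6 percentage points at ZIC2/ZIC5 and fell from 4.97 to 1.39 at ZIC1/ZIC4. It was 8.81 and 7.07 at ZIC2/ZIC5 with flanks of 10 and 50 kb. At ZIC1/ZIC4 it was 2.5 with equal numbers of peaks and 8.14 with joined peaks. Without 1 list, it ranged from 1.80 (without WT replicate 2) to 8.14 (without WT replicate 1) at ZIC1/ZIC4 and from 9.27 to 18.5 at ZIC2/ZIC5. The labels name the replicates of every line A and B, numbered 1 and 2 here. The difference of replicate 1 from replicate 2 over 19111 autosomal genes correlated between lines at 0.801, 0.832 and 0.829, and the narrowest peaks also went with the number, but the labels name no shared batch or day. With the replicate block, the exact permutation p was 0.5 at each pair, the smallest it allows, and the differences remained 2.70 and 10.6.

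The number of ZIC genes marked in all 6 lists, 2, became 1 at this stricter threshold (ZIC2), 1 with canonical starts only (ZIC5), 1 with 50% of the start window covered (ZIC2) and 4 with a start window of 2.5 kb. It was 2 to 3 without 1 list, where ZIC4 joined without 232P replicate 1. The genes marked in all lists fell from 2281 to 556 and 599 with the first and the third of these settings. The 40 genes marked only in both WT lists became 52 to 161 when 1 list was left out. Of these, leaving out 231K replicate 2 gave 88, with ZIC1 among them. The 7 WT-only marks at ZIC1/ZIC4 became 0 at the stricter threshold, 2 with equal numbers of peaks and 7 to 14 when 1 list was left out (14 without WT replicate 1 and 11 without WT replicate 2). These last alternatives were chosen after seeing the data.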

Other observations

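PLSCR5, which encodes a member of the phospholipid scramblase family, is the nearest protein-coding gene on the other side of the domain beyond ZIC4, 760.7 kb from the window. Peaks covered 11.5% and 38.4% of it in WT replicates 1 and 2, against 16.1% and 34.7% in 231K and 2.79% and 30.2% in 232P, so that the groups overlapped. The non-coding gene ENSG00000243620, which lies between both, was covered by 8.86% and 18.4% in WT, against 10.8% and 21.5% in 231K and 1.90% and 18.1% in 232P. In both genes, 231K replicate 1 was higher than WT replicate 1.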
